A study of Mus musculus with 18 samples.

Results

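Liver RNA of mice under caloric restriction (CR) was set against liver RNA of mice fed ad libitum (AL), and the comparison is described here across genes. It covers the 11201 of 12019 genes whose normalized counts averaged at least 10 over the 5 groups of the study. The rule used expression level alone, not the difference between CR and AL. CR is among the 5 averaged groups, however, so a gene high only in CR could pass through its CR mean. Cux2, for example, had at most 3.67 normalized counts in the other groups and 164 in CR. Just inside the limit lay Ccl2 and Msl3l2, at means of 10.004 and 10.017 per the authors' deposited table, and just outside it Cenpm and Wdr5b, at 9.992 and 9.991. All mice were C57BL/6J, an inbred laboratory strain, and their interventions began at 21 weeks of age and lasted 8 weeks. The AL mice had free access to chow, and the CR mice were restricted by 30%. The other groups, used here only to place the CR values, received chow with rapamycin (an inhibitor of the kinase mTOR) at 42 mg/kg/day, metformin (a biguanide that lowers blood glucose) at 37.5 mg/kg/day or TM5614 (an inhibitor of the plasminogen activator inhibitor PAI-1) at 20 mg/kg/day. Livers were flushed with buffered saline and whole-liver poly(A) RNA was sequenced, so the values mix all liver cell types.

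The labels list 6 AL and 3 CR libraries. The values are, however, those of the authors' deposited table (a mean for each group, a log2 fold change and an adjusted p), because the deposited values per library carry names that match no label. No value per mouse, SD or standard error can therefore be given, and the spread between animals enters only through the authors' adjusted p. The labels do not say whether libraries came from separately housed animals, and they name no sex, batch, time of day or feeding time. The design text speaks of 30 mice while its groups sum to 18. The smallest AL mean above 0 was 0.315 normalized counts, and the smallest means of the 4 groups with 3 libraries were 0.299 to 0.322, so the number of libraries behind the AL mean is not known. Depth per library is unknown.

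Caloric restriction lowers energy intake without malnutrition, and in many rodent strains it delays ageing. In the liver, fewer nutrients favour the breakdown of fat over its synthesis, and hormones such as insulin, glucagon, glucocorticoids and growth hormone set which enzymes are made. Growth hormone is secreted in pulses in male rodents and more evenly in females, which makes many liver transcripts sex-biased, and feeding time is a strong signal for the liver clock.

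CR changed about 1 in 5 of these genes. Of the 11181 genes with an adjusted p, 2207 (19.7%) passed an adjusted p under 0.05 per the authors' deposited table, 1131 higher in CR (10.1%) and 1076 lower (9.62%). A gene is said to have risen or fallen only if it passed this threshold. Counts of calls in the gene lists below are to be read beside the 10.1% and 9.62% of all genes. A bare number in brackets after a gene's name is its log2 fold change, CR against AL. Most changes were modest: the median size on the log2 scale was 0.67 among genes that rose and 0.75 among those that fell. A log2 fold change of at least 1 was reached by 288 genes that rose (2.58% of those tested) and 344 that fell (3.08%), and one of at least 3 by 22 (0.197%) and 23 (0.206%). Over all members the median log2 fold change was 0.01, with quartiles at -0.26 and 0.27, so the changes lay on both sides of a centre near 0.

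**Figure D1:**
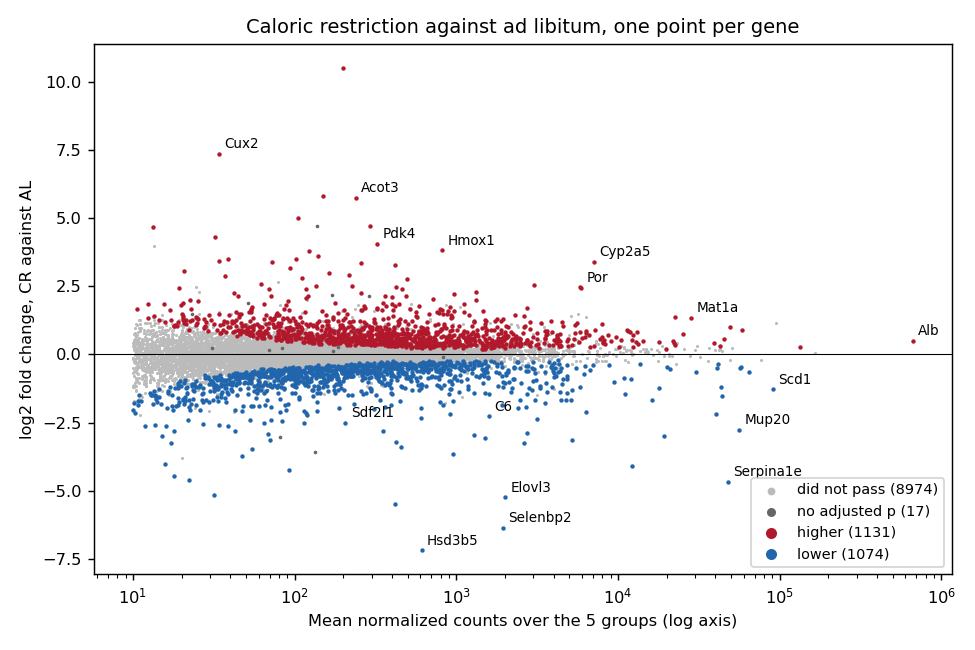
Each point is 1 gene: the horizontal axis is its mean normalized count over the 5 groups (log axis) and the vertical axis its log2 fold change, CR against AL, per the authors' deposited table. Red points rose, blue points fell, and grey points did not pass or have no adjusted p; 5 members listed at 0 in CR or AL are not drawn. Changes reach further from 0 at low means, and highly expressed genes pass at smaller changes.

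How small a change could be called depended on expression level. Among members with means of 10 to 50 normalized counts 9.92% passed, with no called change smaller than 0.65 on the log2 scale. Among the 100 members with means of 10000 or more 49% passed, with changes down to 0.19. A gene with a low mean that did not pass may therefore still differ. Calls also moved with transcript length: in the fifth of genes with the shortest summed exons 7.61% rose and 12.7% fell, and in the fifth with the longest 12.3% rose and 7.23% fell. The part of length in the results below was not tested. Against a median summed exon length of 4426 bases over all members, the medians were 1038 for the major urinary proteins, 1548 for glutathione transferases, 1825 for histones, 2057 for the Serpina family, 2073 for Cyp2, 2083 for Cyp3a, 2388 for carboxylesterases, 2559 for male-biased genes, 2652 for retinoid genes, 2825 for complement and 2949 for female-biased genes.

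**Figure D2:**
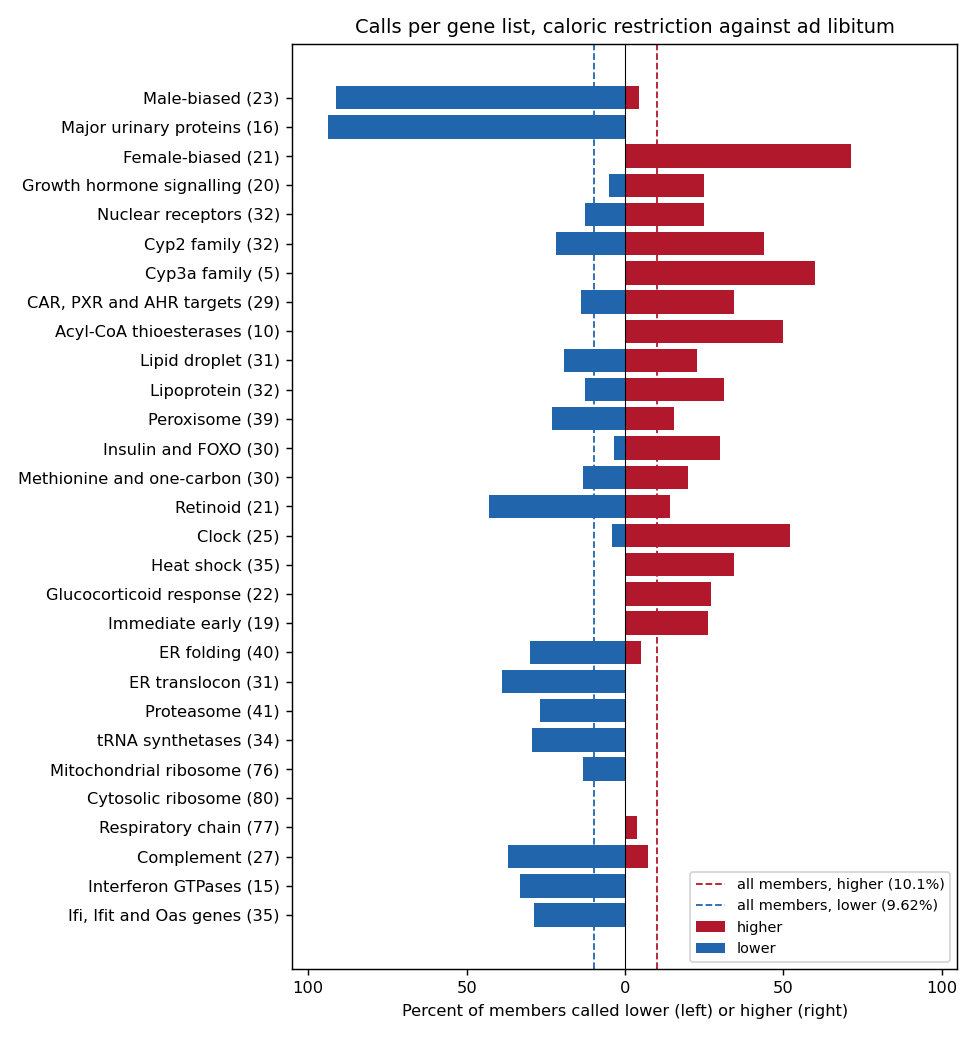
Bars give the percentage of each gene list's members with an adjusted p (their number in brackets) that rose in CR (red, right) or fell (blue, left) against AL per the authors' deposited table. Dashed lines mark the shares over all members, 10.1% and 9.62%. Male-biased genes and major urinary proteins lie almost wholly on the left, female-biased, clock and heat shock genes mainly on the right.

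The largest rises included several oxidising enzymes. Fmo2, a flavin monooxygenase on chromosome 1 (162874317 to 162898726, mm10), had 48.6 normalized counts in AL, 42.5, 53.9 and 63.6 under rapamycin, metformin and TM5614 and 1261 in CR per the authors' deposited table (4.70, adjusted p = 2.45e-42). The authors' deposited table gives the P450 gene Cyp2a22 6.08 in AL and 122.7 in CR (log2 fold change 4.31, adjusted p = 3.64e-10). Cyp17a1, a steroid 17-hydroxylase, went from 37.8 to 462 per the authors' deposited table (3.61, adjusted p = 4.19e-06), with 50.2 to 75.5 in the other groups. Thus for each of these genes CR stood outside the range of the other 4 groups.

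Pdk4, the kinase that shuts the pyruvate dehydrogenase complex and so spares glucose, had 80.7 normalized counts in AL, 91.1 under rapamycin, 51.8 under metformin, 59.4 under TM5614 and 1344 in CR per the authors' deposited table (4.06, adjusted p = 8.24e-06). Hmox1, heme oxygenase 1, which breaks down heme, had 178 in AL and 2514 in CR per the authors' deposited table (3.82, adjusted p = 0.00158). Rapamycin had the next highest Hmox1 mean, 952, per the authors' deposited table. Fos (3.48), an immediate early transcription factor, and Orm3 (3.48), an acute phase glycoprotein of a family with closely related copies, were further large rises per the authors' deposited table. The organic anion transporter Slc22a26 (3.43) and 1810053B23Rik (4.68) rose too, while both had AL means under 12 per the authors' deposited table. All of the 15 largest rises lay outside the range of the other 4 group means. They were chosen by their CR fold, so this position is partly built in. CR was the highest of the 5 groups for 93.9% of all genes that rose and for 31% of all members.

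The largest falls included Hsd3b5, Selenbp2, Elovl3, several Serpina genes and several major urinary proteins. Slc22a28, an organic anion transporter, had 88.1 to 132 normalized counts in the other groups and 6.99 in CR per the authors' deposited table (-4.24, adjusted p = 1.26e-17). Nudt7, a peroxisomal hydrolase that cleaves coenzyme A, had the smallest adjusted p of the named genes, with 2403 to 3805 in the other groups and 380.0 in CR per the authors' deposited table (-3.23, adjusted p = 1.00e-106). Fabp5, a fatty acid binding protein, went from 454 to 43.6 per the authors' deposited table (-3.38, adjusted p = 2.64e-09). For these 3 genes the CR mean lay below the lowest of the other 4 groups. Chrna4, a subunit of the nicotinic acetylcholine receptor, had -3.73, Ugt2b38, a glucuronosyltransferase, -3.46 and Serpina12, also known as vaspin, -3.21 per the authors' deposited table. Serpina4-ps1, annotated as a pseudogene, went from 238 to 5.31 per the authors' deposited table (-5.48), with its highest mean, 1181, under TM5614. Of the 15 largest falls 14 lay outside the range of the other groups. The exception was Cela2a, a pancreatic elastase, discussed with the markers of other cells. These genes too were chosen by their CR fold. CR was the lowest of the 5 groups for 95% of all genes that fell and for 30.2% of all members.

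**Figure D3:**
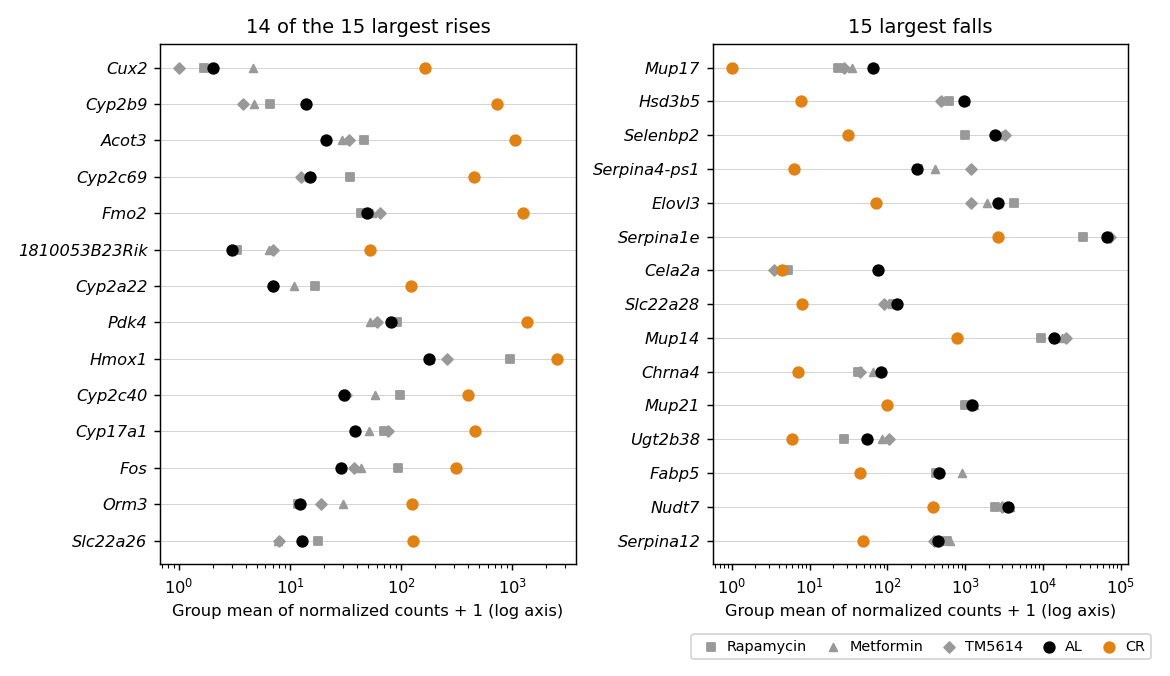
Group means of normalized counts plus 1 (log axis) from the authors' deposited table for 14 of the 15 largest rises (left) and the 15 largest falls (right) among genes called in CR with at least 50 in the higher group. AL is black, CR orange and the 3 compound groups grey. The orange point lies apart from the 4 others in every row except Cela2a, where AL is the group that stands apart.

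Transcripts with a known sex bias moved in opposite directions. Of 23 male-biased genes with an adjusted p, 21 fell and 1 rose, with a median log2 fold change of -2.33, against 9.62% and 10.1% of all genes. The exception was Hsd11b1, which regenerates active glucocorticoid (0.50, adjusted p = 0.00194, per the authors' deposited table). Of 21 female-biased genes 15 rose and none fell, with a median of 1.98. Cyp4a12a, which makes a vasoactive lipid, had -3.06 and the complement component C6 -2.25 per the authors' deposited table. Sult1d1, a sulfotransferase, had 1.59 and the thioesterase Acot4 2.24 on the other side per the authors' deposited table. Both lists were built with earlier results on these livers known, so their direction is no independent evidence.

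Of 20 genes of growth hormone signalling 5 rose (25%, against 10.1% of all genes) and 1 fell (5%, against 9.62%). Ghr, the growth hormone receptor, fell from 4388 to 3365 normalized counts per the authors' deposited table (-0.38, adjusted p = 0.0197). Stat5b, the transcription factor that carries the male growth hormone signal, had -0.14 (adjusted p = 0.671) per the authors' deposited table and did not pass. Nor did the repressor Bcl6 (-0.81, adjusted p = 0.475), the factor Onecut1 (-0.91, adjusted p = 0.622) or the STAT5 target genes Socs2 (0.23) and Cish (-0.47) per the authors' deposited table. Cux2, a repressor found mainly in female liver, rose from 1.003 to 164 per the authors' deposited table, so its fold rests on a value near 0. Trim24, a transcriptional corepressor, rose from 146 to 450.3 (1.63, adjusted p = 7.56e-08), and the secreted growth factor Igf1 and its binding protein Igfbp4 had 0.52 and 0.82 per the authors' deposited table. Igfbp1, another binding protein (0.59, adjusted p = 0.710), did not pass per the authors' deposited table.

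The letters bound by STAT5 were looked for in the promoters of these lists to show what such a site looks like. RefSeq promoter windows of GRCm38.p6 (250 bases before to 50 after each start) could be matched to 8099 of the 11201 members. TTCNNNGAA, which reads the same on both strands, lay in 8.36% of these, in 2 of 17 male-biased genes (11.8%, Keg1 and Moxd1) and in 2 of 15 female-biased genes (13.3%, Slc22a26 and Fmo2). A match describes letters and not binding. Capitals mark the letters of the motif in 1 gene that fell and 1 that rose, on the gene's own strand: Keg1 at chr19:12695607-12695635 (plus strand), and Slc22a26 at chr19:7802790-7802818 (minus strand).
Keg1: attgtcatttTTCtgtGAAacacatttgt
Slc22a26: ctggctaattTTCaggGAAtttacaaatc

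Several of the strongest changes were neighbours in the genome. Major urinary proteins, small carriers of pheromones secreted by the liver into blood and urine, fell in 15 of the 16 genes with an adjusted p, with a median of -2.36. Their share of all normalized counts went from 2.61% in AL to 0.594% in CR. These figures leave out Gm2083, which fell from 0.613% to 0.251% and lies in the run that starts at 60737383. On chromosome 4 (mm10) 3 runs of neighbouring members all fell: 6 genes from 60066469 to 60582199, 5 from 60737383 to 61439743 and 5 from 61591929 to 62150863. Mup14, for example, went from 13697 to 795 and Mup21 from 1214 to 97.7 per the authors' deposited table, and Mup17 is listed at 0 in CR. These genes are near-identical copies, so how reads were divided among them is uncertain. On chromosome 12 a run of 5 Serpina genes fell between 103894926 and 104086724, among them Serpina1c (-0.45), Serpina1e and Serpina12 per the authors' deposited table. Over the whole Serpina family 7 of 17 genes fell and 4 rose, with a median of -0.07. Serpina1b (0.30, adjusted p = 0.0153) and Serpina3m (1.22, adjusted p = 6.85e-05), also on chromosome 12, were among the rises per the authors' deposited table.

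Runs of genes that rose lay in 3 enzyme clusters. How reads were divided among related genes of a cluster, the Serpina cluster included, is not known. On chromosome 19 from 39688834 to 40073827, 5 Cyp2c genes rose, with Cyp2c40 going from 29.3 to 400.5 and Cyp2c68 from 1177 to 2559 per the authors' deposited table. On chromosome 7 from 26173411 to 27037375 Cyp2b9, Cyp2a5, Cyp2a22 and Cyp2a12 rose, and on chromosome 12 from 83987861 to 84060402 the thioesterases Acot2, Acot1, Acot4 and Acot3. The glucocorticoid-induced chaperone gene Fkbp5 stood with Srpk1, Mapk14 and Brpf3 in a run of 4 that rose on chromosome 17, from 28399094 to 28839949. Within the Cyp2 family as a whole 14 of 32 genes rose and 7 fell, so the direction was not shared by the family.

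Receptors that sense lipids and foreign compounds were among the genes that rose. Nr1i3, the constitutive androstane receptor (CAR), went from 341 normalized counts in AL to 1075 in CR per the authors' deposited table (1.65, adjusted p = 2.23e-15). Its means under rapamycin, metformin and TM5614 were 299, 410.2 and 459.8 per the authors' deposited table, all below CR. Nr1i2, the pregnane X receptor, had 0.81 (adjusted p = 3.46e-05), and Ppara, the receptor that induces fatty acid breakdown, 1.32 (adjusted p = 6.42e-08), per the authors' deposited table. Esrra (0.94), a receptor tied to mitochondrial genes, rose as well per the authors' deposited table. Thra, a thyroid hormone receptor (-0.82), and Nr1d1 (-1.23), also known as REV-ERBalpha, fell per the authors' deposited table. Their annotated ends overlap on opposite strands of chromosome 11, and whether reads were assigned by strand is not given. Of 32 nuclear receptors and coactivators 8 rose and 4 fell. The coactivator Ppargc1a (0.91, adjusted p = 0.107) did not pass per the authors' deposited table.

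Among other liver transcription factors 5 of 34 rose and 1 fell (14.7% and 2.94%, against 10.1% and 9.62% of all genes). Atf5, a stress-responsive factor, fell (-1.02, adjusted p = 2.19e-11), while the endoplasmic reticulum stress sensor Atf6 (0.67), its relative Creb3l3 (0.64), the proteasome gene regulator Nfe2l1 (0.47), the lysosome regulator Tfeb (0.96) and Prox1 (0.96) rose per the authors' deposited table. Srebf1 (-0.66, adjusted p = 0.0927) and Mlxipl (-0.43, adjusted p = 0.173), which drive lipid synthesis after feeding, did not pass per the authors' deposited table.

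Targets of CAR, the pregnane X receptor and the aryl hydrocarbon receptor rose in 10 of 29 genes and fell in 4. Cyp2a5 went from 2104 to 22108 normalized counts per the authors' deposited table (3.39), with 1 of the largest gains in counts of any gene. Por, which passes electrons to all microsomal P450 enzymes, went from 2652 to 14471 per the authors' deposited table (2.45, adjusted p = 2.61e-18). Alas1, the first enzyme of heme synthesis (0.39, adjusted p = 0.444), did not pass per the authors' deposited table. Cyp3a genes rose in 3 of 5 members, led by Cyp3a59 (2.47, adjusted p = 1.87e-53) per the authors' deposited table.

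Conjugating enzymes changed in both directions. Of 16 Ugt glucuronosyltransferases 4 rose and 3 fell, with Ugt1a9 at 1.58 and Ugt2b35 at -0.69 per the authors' deposited table. The Ugt1a transcripts share exons, so their reads may be split arbitrarily. Among 6 sulfotransferases 3 rose, Sult1a1 from 1818 to 4887 per the authors' deposited table, and Sult5a1 (-1.02) fell. The 19 glutathione transferases held 5 rises and 5 falls: Gsta2 had 1.23 and Gstt2 1.30, against Gstm4 at -1.96 and the abundant Gstp1 at -1.66 per the authors' deposited table. Of 13 carboxylesterases 4 rose and 6 fell, among them Ces1b (1.24) on the rising side and Ces3a (-1.46) on the falling side, which had 13361 in AL and 4843 in CR per the authors' deposited table. Of 24 aldo-keto reductases and hydroxysteroid dehydrogenases 6 rose and 8 fell, among the latter Hsd17b2 (-1.46, adjusted p = 4.29e-37), which inactivates sex steroids, and the bile acid enzyme Hsd3b7 (-1.94) per the authors' deposited table.

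Carriers at the cell surface also split. The uptake carriers Slco1a1 (-2.89) and Slc22a30 (-1.25) fell, whereas Slco1a4 went from 580.0 to 2682 per the authors' deposited table (2.21). The efflux pump Abcb1a rose from 23.9 to 249 per the authors' deposited table, and Abcb11, the export pump for bile salts, fell (-0.91, adjusted p = 2.85e-10). Abcg5 (0.88), a part of the transporter that moves sterols into bile, rose per the authors' deposited table. Over 18 Slc22 and Slco genes 5 rose and 5 fell, and over 38 Abc genes 9 and 6.

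Solute carriers of the Slc16, Slc22 and Slc25 families changed in both directions. Slc16a5, a member of the monocarboxylate transporter family, had 81.9 normalized counts in AL, 78.7, 133 and 168 under rapamycin, metformin and TM5614 and 828 in CR per the authors' deposited table (3.34, adjusted p = 9.21e-08). Its relatives Slc16a7, a carrier of pyruvate and lactate (1.77), Slc16a12, a carrier of creatine (1.54), and Slc16a10, a carrier of aromatic amino acids (1.17), rose as well per the authors' deposited table. Slc22a5, which imports carnitine, rose from 175 to 778 per the authors' deposited table (2.15). Carnitine is what carries fatty acids into mitochondria. Slc25a20, the carnitine carrier of the inner mitochondrial membrane (0.41), and the glutamate carrier Slc25a13 (0.50) rose, and the citrate carrier Slc25a1, which feeds lipid synthesis, fell (-0.48) per the authors' deposited table. Among 37 mitochondrial carriers 8 rose and 2 fell. Slc1a2, a glutamate carrier, and the zinc exporter Slc30a1 rose by 1.43 and 0.97 on the log2 scale per the authors' deposited table. Over the 166 solute carriers outside the Slc22, Slco and Slc25 families 28 rose (16.9%) and 15 fell (9.04%). The shares of all genes were 10.1% and 9.62%.

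Insulin and FOXO genes rose in 9 of 30 members and fell in 1. Txnip, which restrains glucose uptake, went from 674 to 2439 normalized counts per the authors' deposited table (1.85, adjusted p = 0.00199). Foxo1 (0.75), Pik3r1, the regulatory subunit of PI3-kinase (0.93), Enpp1 (1.005) and Gys2, liver glycogen synthase (0.89), rose, while Pygl, liver glycogen phosphorylase, fell (-0.84, adjusted p = 9.60e-11) per the authors' deposited table. The insulin receptor Insr (0.28), its substrate Irs2 (0.26) and Sesn1 (0.22) did not pass per the authors' deposited table, with adjusted p of 0.122, 0.859 and 0.400.

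Acyl-CoA thioesterases, which release fatty acids from coenzyme A, rose in 5 of 10 members and fell in none. Peroxisomal genes split, with 6 of 39 rising and 9 falling: Crat, a carnitine acetyltransferase, was on the rising side, while the lipid carrier Scp2 (-0.63), the glycolate oxidase Hao1 (-0.998), the thiolase Acaa1b (-0.87) and the bile acid enzyme Acox2 (-0.80) fell per the authors' deposited table. Cyp4a10 and Cyp4a14, fatty acid hydroxylases induced through PPARalpha, rose to 8118 and 14539 normalized counts from 1395 and 2648 per the authors' deposited table. Of 13 Cyp4 genes 3 rose and 3 fell. Fatty acid elongases and desaturases fell in 4 of 11 members and rose in 1: Elovl5 had -1.67, Elovl6 -1.27 and Scd1 -1.28, and Fads2 had 0.56, per the authors' deposited table.

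Lipid droplet genes held 7 rises and 6 falls among 31. Plin5, which tethers droplets to mitochondria, rose from 570.1 to 1475 (1.37, adjusted p = 0.00970), and Pnpla2, the adipose triglyceride lipase, rose by 0.86 on the log2 scale (adjusted p = 9.15e-07), per the authors' deposited table. The phospholipase Pnpla7 (-0.95) and the droplet protein Fitm1 (-1.49) fell per the authors' deposited table. Plin2, the main droplet coat protein of liver (0.60, adjusted p = 0.360), and the fatty acid receptor Cd36 (0.49, adjusted p = 0.0675) did not pass per the authors' deposited table. Among 32 lipoprotein genes 10 rose and 4 fell. Apoa4 went from 1867 to 6123 (1.71, adjusted p = 0.00400) and Apoa5, which lowers plasma triglycerides, from 9869 to 17308 per the authors' deposited table. The phospholipid transfer protein Pltp (-1.70) and the sorting receptor Sort1 (-1.42) fell per the authors' deposited table. Angptl4, an inhibitor of lipoprotein lipase (0.60, adjusted p = 0.163), did not pass per the authors' deposited table.

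Genes that fold secreted proteins in the endoplasmic reticulum fell more often than they rose. Among 40 such genes 12 fell, 2 rose and 26 did not pass, with a median log2 fold change of -0.16. A known control element of these genes is the ER stress response element, CCAAT and CCACG with 9 bases between, bound by NF-Y and ATF6. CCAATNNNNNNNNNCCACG was searched on both strands of the promoter windows; an E-box (CACGTG) can overlap its CCACG end. It lay in 15 of 8099 members' promoters (0.185%) and in 9 of the 32 folding genes with a window (28.1%). It is shown for 2 genes that fell, Calr and Pdia6, and for 4 that did not pass, with capitals for the motif letters, which are reversed (CGTGG before ATTGG) where the element lies on the other strand. The sites are chr8:84847065-84847103 (minus) for Calr, chr12:17266481-17266519 (plus) for Pdia6, chr2:34772015-34772053 (plus) for Hspa5, chr10:86705628-86705666 (minus) for Hsp90b1, chr14:118937817-118937855 (plus) for Dnajc3 and chr15:88819510-88819548 (plus) for Creld2, from RefSeq on GRCm38.p6.
Calr: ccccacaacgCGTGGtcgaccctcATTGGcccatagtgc
Pdia6: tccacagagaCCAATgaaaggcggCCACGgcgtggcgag
Hspa5: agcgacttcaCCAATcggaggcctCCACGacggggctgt
Hsp90b1: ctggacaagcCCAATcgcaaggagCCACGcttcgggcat
Dnajc3: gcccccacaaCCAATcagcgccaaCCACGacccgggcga
Creld2: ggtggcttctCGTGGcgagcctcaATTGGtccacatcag

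Of the 9 folding genes with this element 2 passed, while 19.7% of all members did. Calr, the calcium-binding chaperone calreticulin, had 6519.8 normalized counts in AL, 6342, 7246 and 6299 under rapamycin, metformin and TM5614, and 2826 in CR per the authors' deposited table (-1.21, adjusted p = 2.52e-15). Pdia6, a disulfide isomerase, had 2169.5 in AL and 941 in CR per the authors' deposited table (-1.20, adjusted p = 6.87e-16). Hspa5, the central chaperone BiP, had 6022 in AL and 5065 in CR per the authors' deposited table (-0.25, adjusted p = 0.552) and did not pass. Dnajc3 had 0.25 (adjusted p = 0.165) and Creld2 -0.09 (adjusted p = 0.898) per the authors' deposited table. Of the 9 genes with the element 2 fell and none rose (median -0.25), and of the other 23 folding genes with a promoter window 6 fell and 2 rose (median -0.08); the difference was not tested. Among those 23, Sdf2l1, a cofactor of BiP, had 253 in AL and 44.6 in CR per the authors' deposited table (-2.51), and Pdia4 (-1.04), Pdia3 (-0.66) and the cyclophilin Ppib (-0.74) fell as well. Xbp1, the splicing-activated factor of this response (-0.42, adjusted p = 0.337), did not pass per the authors' deposited table.

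The channel and enzymes that receive new secreted proteins also fell in part. Of 31 genes for the translocon, signal peptidase and oligosaccharyltransferase 12 fell and none rose, with a median of -0.24. Sec61b, a subunit of the channel, went from 346 to 198 (-0.81), Rpn1, a subunit of the oligosaccharyltransferase, from 1148 to 745 (-0.62), and Spcs2 of the signal peptidase from 847 to 581 (-0.54) per the authors' deposited table. None of the 23 members with a promoter window held the ER stress response element. Vesicle coats were mixed, with 2 of 32 rising (Sar1b 0.41 and Sec23a 0.36) and 4 falling (Copz1 -0.45, Tmed9 -0.61, Sec23b -0.49 and Cope -0.37) per the authors' deposited table. For the COPII coat this gave its paralogs Sec23a and Sec23b opposite signs. Of 30 genes that build N-glycans 3 fell and 1 rose, and the share that fell, 10%, was near the 9.62% of all genes.

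Proteasome and tRNA synthetase genes also held more falls than rises. The proteasome had 11 falls and no rise in 41 genes (median -0.21), led by Psmd14, its deubiquitinase, from 426 to 248 per the authors' deposited table (-0.78, adjusted p = 2.66e-11). Aminoacyl-tRNA synthetases, which load tRNAs with amino acids, fell in 10 of 34 and rose in none (median -0.21). Mitochondrial Sars2 (-0.82) and cytosolic Cars (-0.73) and Tars (-0.66) were among them per the authors' deposited table. Mitochondrial ribosomal proteins fell in 10 of 76 (13.2%, near the 12.7% of the fifth with the shortest exons) and rose in none (median -0.19), with Mrps27 at -0.87 per the authors' deposited table. The median summed exon length was 2820 bases for the proteasome and 2214 for the mitochondrial ribosome against 4426 for all members, and 5234 for the synthetases.

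Cytosolic ribosomal proteins and the respiratory chain held few calls. None of the 80 cytosolic ribosomal protein genes passed per the authors' deposited table, with a median of 0.13 and a median exon length of 1776 bases. Of 77 respiratory chain and ATP synthase genes, with a median exon length of 1737 bases, 3 rose and none fell: Atp5b (0.27, adjusted p = 0.00299), Atp5sl (0.60) and Cox7a2l (0.25) per the authors' deposited table. Both lists hold short transcripts and no falls, and the part of length was not tested. Translation initiation factors rose in 8 of 56 and fell in 1. Eif4b (0.59, adjusted p = 2.03e-11) and Eif2ak3, the kinase PERK (1.29), were among the rises and Eif4g3 (-0.40) was the fall per the authors' deposited table. Splicing factors held 4 rises and 4 falls in 36 genes (11.1% each, near the 10.1% and 9.62% of all genes).

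**Figure D4:**
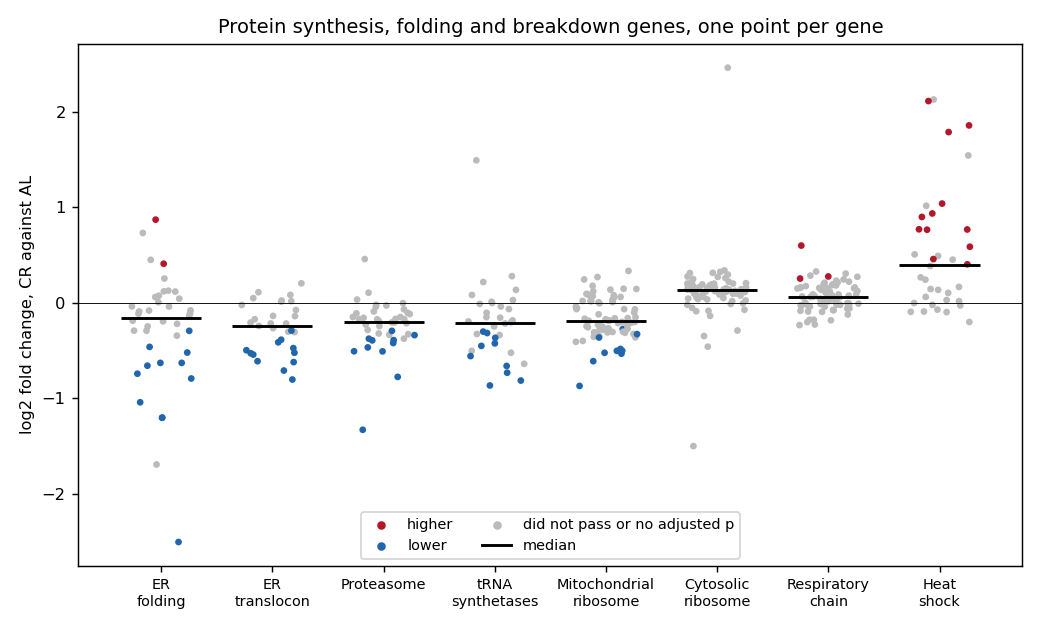
Each point is the log2 fold change of 1 gene, CR against AL, per the authors' deposited table, for 8 gene lists of protein synthesis, folding, breakdown and respiration; bars are medians, red points rose, blue points fell and grey points did not pass or have no adjusted p. Medians lie below 0 for the 5 lists on the left, at 0.13 for the cytosolic ribosome and at 0.39 for heat shock genes.

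Heat shock genes, a list of mainly cytosolic chaperones that also holds mitochondrial ones and cold-induced RNA-binding proteins, held rises and no falls. Among 35 with an adjusted p there were 12 rises, no fall and 23 that did not pass, with a median of 0.39. Hspa8, the constitutive HSP70, went from 8606 to 16023 normalized counts per the authors' deposited table (0.90, adjusted p = 5.57e-06), and Hsph1, a nucleotide exchange factor, from 216 to 783 (1.86, adjusted p = 0.00166). The cochaperones Dnaja1 (0.93) and Dnaja2 (0.58), the small heat shock protein Hspb8 (1.04) and the cold-induced RNA-binding protein Rbm3 (0.77) rose per the authors' deposited table. Cirbp, another cold-induced RNA-binding protein (0.49, adjusted p = 0.284), did not pass per the authors' deposited table. The heat shock element GAANNTTCNNGAA, searched on both strands, lay in 0.654% of members' promoters and in 4 of 29 heat shock genes (13.8%). It is shown for Hspd1, the mitochondrial chaperonin, which rose (0.46, adjusted p = 0.0184, per the authors' deposited table), at chr1:55088049-55088081 (minus strand). Hspe1, the cochaperonin read from the same stretch in the other direction, had 0.38 (adjusted p = 0.276) and did not pass per the authors' deposited table.
Hspd1: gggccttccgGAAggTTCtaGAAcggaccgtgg

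Clock genes rose in 13 of 25 members and fell in 1, with a median of 0.80. The repressors Cry1 (65.4 to 275), Cry2 (179 to 560.4) and Per2 (61.5 to 349.7) rose per the authors' deposited table, as did the cell cycle kinase gene Wee1 (2.41). The output factors Tef (1.61, adjusted p = 1.25e-07) and Dbp (1.62, adjusted p = 0.0222) rose too per the authors' deposited table, and the repressor Nr1d1 fell from 445 to 189 (adjusted p = 6.71e-04). For Dbp CR was not the highest group: its means were 177 in AL, 544 in CR, 34.2 under rapamycin, 630 under metformin and 644 under TM5614. Tef had 549.9 in AL, 1674 in CR, 384 under rapamycin, 968 under metformin and 1238 under TM5614 per the authors' deposited table. Per1 had 0.77 (adjusted p = 0.113) and did not pass per the authors' deposited table. CLOCK and BMAL1 bind the E-box and DBP and TEF bind the D-box, so these letters are shown for members that rose. CACGTG, the same on both strands, lay in 12.1% of members' promoters and in 4 of 17 clock genes (23.5%). Of these 4, Cry1 and Tef rose, while Per1 and Bhlhe41 (0.57, adjusted p = 0.650, per the authors' deposited table) did not pass. TTATGTAA, searched on both strands, lay in 0.716% and in 1 clock gene of 17 (5.88%), Per3, which rose (2.38, adjusted p = 6.18e-05, per the authors' deposited table). The stretches lie at chr10:85185099-85185124 (minus) for Cry1, chr15:81802536-81802561 (plus) for Tef and chr4:151044853-151044880 (minus) for Per3. Time of day at collection is not in the labels, so its part in these values was not tested.
Cry1: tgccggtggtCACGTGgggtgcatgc
Tef: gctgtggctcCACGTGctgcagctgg
Per3: gacccgcgcgTTATGTAAggtactcggg

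Genes of the glucocorticoid response and immediate early genes held rises and no falls. Of 22 glucocorticoid genes 6 rose: Fkbp5, a chaperone of the receptor, went from 537 to 2131 normalized counts per the authors' deposited table (1.99, adjusted p = 0.0217). Fkbp5 had 1007 under rapamycin, 1136 under metformin and 1848 under TM5614 per the authors' deposited table. Serpina6, the plasma carrier of glucocorticoid (0.75), Tdo2, which degrades tryptophan (0.70), Hsd11b1 (0.50) and the receptor gene Nr3c1 (0.30, adjusted p = 0.0449) rose per the authors' deposited table. Of 19 immediate early genes with an adjusted p 5 rose: Fos, Klf4 (1.18), Klf6 (1.68), Dusp6 (1.65) and Ier2 (1.30) per the authors' deposited table. Another 3 members have no adjusted p.

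Methionine cycle enzymes included some of the largest gains in counts. Mat1a, which makes S-adenosylmethionine, went from 20083 normalized counts in AL to 50906 in CR per the authors' deposited table (1.34, adjusted p = 3.28e-12). Ahcy, which hydrolyses S-adenosylhomocysteine, went from 17158 to 44112 per the authors' deposited table (1.36, adjusted p = 2.08e-25). Gnmt, a methyltransferase that consumes excess S-adenosylmethionine (0.44, adjusted p = 0.00350), and Dmgdh (0.63) rose per the authors' deposited table. Enzymes of the route from homocysteine to taurine fell instead: Cbs had 4882 in AL and 2120.3 in CR (-1.20, adjusted p = 4.36e-41), and Csad, which makes the taurine precursor, 5252 and 1632 (-1.69, adjusted p = 2.01e-10), per the authors' deposited table. Mthfd1l, a mitochondrial folate enzyme, rose from the low mean of 6.97 to 37.9 per the authors' deposited table. Of 30 genes in all, 6 rose and 4 fell.

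NAD genes changed in both directions. Nampt, which recycles nicotinamide, had 390.5 in AL, 464, 523 and 604 under rapamycin, metformin and TM5614 and 1594 in CR per the authors' deposited table (2.03, adjusted p = 4.34e-31). Qprt (-1.08, adjusted p = 4.13e-41) and Haao (-0.41), which make NAD from tryptophan, fell, while Tdo2 at the head of that route rose per the authors' deposited table. Sirt5, a mitochondrial deacylase, fell (-0.83, adjusted p = 5.01e-04), and Sirt1 (0.34, adjusted p = 0.153) and Nnmt, which methylates nicotinamide (1.15, adjusted p = 0.0753), did not pass per the authors' deposited table. Over 33 genes of NAD, AMPK and sirtuins 7 rose and 3 fell.

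The mTOR and nutrient sensing list held 6 rises and 4 falls in 39 genes (15.4% and 10.3%, against 10.1% and 9.62% of all genes). Fnip1 (1.08, adjusted p = 1.70e-05) and Fnip2 (0.999), partners of folliculin at the lysosome, rose, and Depdc5, a subunit of the GATOR1 brake on mTORC1, fell (-0.68, adjusted p = 0.0167) per the authors' deposited table. Polyamine genes rose in 4 of 12 (Sat1 0.96, Odc1 0.63, Oat 0.78 and Srm 0.53) and fell in 1 (Paox -0.68) per the authors' deposited table. Autophagy genes held 5 rises and 3 falls in 27 (18.5% and 11.1%), with Map1lc3b at 0.48 and Atg16l2 at -1.04 per the authors' deposited table.

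Retinoid genes fell more often than they rose, with 9 falls and 3 rises in 21. Rdh11 (-1.31), Adh4 (-1.10) and Dhrs3 (-0.88), which interconvert retinol and retinal, and Lrat (-1.03), which stores retinol as esters, fell per the authors' deposited table. Rbp4, the retinol carrier of plasma, rose from 23082 to 38668, while its partner Ttr fell from 46540.5 to 36686 (-0.34, adjusted p = 0.0274) per the authors' deposited table. Ttr and Serpina7 also carry thyroid hormone, and Serpina7 fell from 850.2 to 236 per the authors' deposited table (-1.85, adjusted p = 1.02e-09). The thyroid-responsive lipogenic enzyme Me1 fell (-1.37), and Dio1, a deiodinase (-0.27, adjusted p = 0.664), did not pass per the authors' deposited table. Of 13 thyroid genes 5 fell and 1 rose.

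Heme and iron genes held rises and falls; the erythroid gene Alas2 is given with the markers of blood cells. Ferritin heavy chain Fth1 rose (0.40, adjusted p = 0.0350), as did transferrin, Trf (0.28, adjusted p = 0.0274), per the authors' deposited table. The heme synthesis genes split, Cpox rising (0.41) and Ppox (-0.53) falling per the authors' deposited table. Hamp, the iron hormone hepcidin (-0.63, adjusted p = 0.0995), did not pass per the authors' deposited table. Of 28 genes 4 rose and 3 fell (14.3% and 10.7%, against 10.1% and 9.62% of all genes).

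Several complement genes made by hepatocytes fell. C6 went from 1818 to 381, C8a from 5772 to 2335, C8b from 2530.0 to 978 and C9 from 3357 to 1414 normalized counts per the authors' deposited table, with adjusted p of 5.90e-23, 1.30e-19, 6.55e-17 and 3.27e-12. All of them encode parts of the membrane attack complex. C3, the central component, rose from 48095 to 88998 (0.89, adjusted p = 4.67e-10), and the lectin Mbl1 fell (-0.89) per the authors' deposited table. Over 27 complement genes 10 fell and 2 rose. Coagulation genes leaned the other way with 6 rises and 3 falls in 20, among them F5 (0.52) and F9 (0.41) up and F11 (-0.80) down per the authors' deposited table.

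Some genes induced by interferon fell, and so did some macrophage markers. Of 15 interferon-induced GTPases 5 fell and none rose, Gbp10 from 43.5 to 7.40 and Iigp1 from 1988 to 1347 per the authors' deposited table. Gbp genes are close copies of each other. Of 35 Ifi, Ifit, Oas and related genes 10 fell and none rose, with Ifi47 at -2.06 and Dhx58 at -1.61 per the authors' deposited table. Antigen presentation genes fell in 5 of 25 members and rose in 1, Tap1 falling (-0.87) and Erap1 rising (0.41) per the authors' deposited table. Beside these, 5 of 12 Kupffer cell and macrophage markers fell, Cd5l (-1.33), C1qa (-0.80), C1qb (-0.92), C1qc (-0.97) and Folr2 (-1.11) per the authors' deposited table. Their summed means were 2120 in AL, 1491 to 1672 under the 3 compounds and 1043 in CR, and no marker was at 0. The part of these cells in the interferon genes was not tested, and fewer macrophages cannot be told apart from less RNA per macrophage in bulk tissue.

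Markers of the other cell types differed from list to list. None of 11 sinusoidal endothelial markers passed (summed means 2263 in AL and 2044 in CR), and of 11 stellate markers Lrat alone fell (3046 and 3217). The 4 erythroid genes in the table summed to 1148 in AL and 1049 in CR, but these sums join opposite directions. Alas2, the erythroid enzyme of heme synthesis, fell from 766 to 152 (adjusted p = 4.59e-28) per the authors' deposited table. The 3 globin entries had log2 fold changes above 0 and did not pass, and the median of the list was 1.05. The cholangiocyte list summed to 1513 and 3052, most of it from Tm4sf4, which rose from 806 to 2399 (1.57, adjusted p = 1.79e-08) per the authors' deposited table, while Sorbs2 of the same list fell (-0.69, adjusted p = 0.00843) and Krt7, Krt19, Epcam, Sox9 and Spp1 did not pass. Of 7 hepatocyte markers 1 rose (Alb, the gene with the highest mean in AL and in CR) and 2 fell (Ttr and Serpina1c). Pancreatic acinar markers summed to 641 in AL, 66.4 to 97.5 under the compounds and 37.4 in CR; 7 of 9 were at 0 in CR and none in AL, so the fall of Cela2a comes with other pancreatic genes that AL alone holds at such levels. Pericentral hepatocyte markers held 4 rises in 10 (Glul 0.45, Cyp2e1 0.99, Oat and Slc1a2) per the authors' deposited table, and periportal markers 3 rises (Alb, Ass1 0.55 and Hsd17b13 0.57) and 2 falls (Cdh1 -1.48 and Hal -0.59).

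Replication genes fell in a few members. Of 9 genes with an Mcm symbol, some of which form the replication helicase, 3 fell and none rose. Those that fell were Mcm10 (-0.97), Mcm3 (-1.10) and Mcm5 (-1.47) per the authors' deposited table. Histone genes fell in 4 of 15 and rose in none. Collagens and laminins held 3 falls and 1 rise in 26 (11.5% and 3.85%, against 9.62% and 10.1% of all genes).

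The abundant transcripts of liver also shifted. Alb went from 606485 normalized counts in AL, 7.77% of the summed means, to 858112 in CR, 10.3%, per the authors' deposited table (0.50, adjusted p = 1.70e-05). Its means under rapamycin, metformin and TM5614 were 557685, 668650 and 637023 per the authors' deposited table, all below CR. The summed means were 563493 higher in CR, of which Alb made up 251627. Normalized counts are not divided by transcript length, so such shares show where reads fell and not which RNA had most molecules. After Alb the largest gains in counts were in Cyp2e1 (41850), C3 (40903) and Mat1a (30823), and the largest losses in Serpina1e (-63783), Scd1 (-48071) and Mup20 (-47204) per the authors' deposited table. Of the 10 genes with most counts in AL, Alb, Apoe, Trf and Apoa1 were among the 10 with most in CR. Apoe (0.06, adjusted p = 0.768) and Apoa1 (-0.19, adjusted p = 0.467) did not pass per the authors' deposited table.

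**Figure D5:**
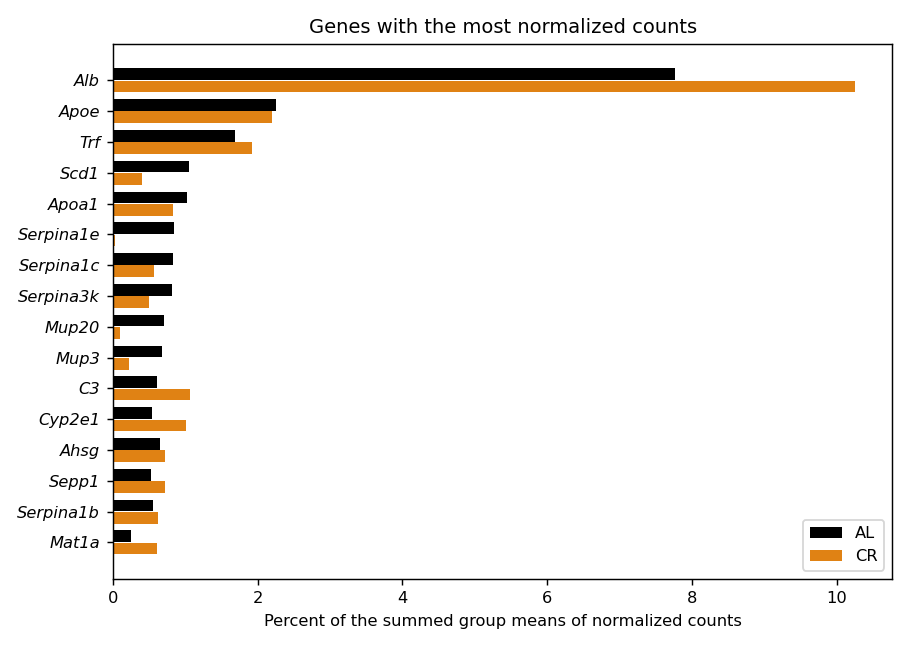
Bars give each gene's percentage of the summed group means of normalized counts in AL (black) and CR (orange), from the authors' deposited table, for the 16 genes among the 10 highest of either group. Alb rises from 7.77% to 10.3%, while Serpina1e and Mup20 nearly vanish from the scale in CR.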

How the data were processed

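Whole-liver poly(A) RNA was sequenced by the authors; reads were aligned with HISAT2 2.0.5 to mm10, per the submitters' processing notes. How reads were assigned to genes, with which annotation and whether by strand, is not given in the sources used here. Their deposited table of comparisons holds, per the file headers, a normalized signal per group, which the values show to be mean gene counts divided by size factors. For each intervention it further holds the authors' log2 fold change from the control and their adjusted p-value. These were used as deposited. A second deposited table has 18 columns per library whose names match none of the labels; none of its values was used, so the planned edgeR test on values per library was replaced by the authors' adjusted p.

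From the table, the 5 group means of a gene were averaged and genes at 10 or more were kept (11201, of which 20 have no adjusted p) and called at an adjusted p under 0.05. Gene lists were described by counts of calls and medians over members, with no set test. The members and lists were chosen with earlier results of these data known. Named genes are the 15 largest rises and 15 largest falls with a higher group mean of at least 50, up to 6 called members per list by adjusted p, a fixed set of regulators, and the 10 genes with most counts in AL and in CR. Genes shown for a promoter stretch or as part of a run of neighbours were added after their values were seen. Of the members 98.7% matched 1 gene of GENCODE vM21, from which positions and exon lengths come; 18 symbols turned into dates by a spreadsheet are not named, and some genes that the rule names are not reported here. Promoters are RefSeq windows on GRCm38.p6. Computations used Python 3.11.15 with pandas 2.3.3. The call rule was run on simulated data with known calls, which checks its code and not the calls made here.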

Additional observations from a re-analysis of the deposited data

How the results depend on the processing

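At an adjusted p under 0.01 in place of 0.05, 700 genes rose and 684 fell per the authors' deposited table, and at an adjusted p under 0.05 with a log2 fold change of at least 1, 288 rose and 344 fell. At an adjusted p under 0.1 the counts were 1486 and 1372, with no minimum on the mean 1145 and 1087, and with a minimum of 50 they were 1043 and 903. Centring on the median of all members left 1131 and 1076. It could not move these counts, since the adjusted p was kept and the smallest called change, 0.19, exceeds the median of 0.01. The direction of a list's median changed only for polyamine genes (-0.04, and 0.39 over members with a mean of at least 50), cholangiocyte markers (-0.02 and 0.63) and Slc22 and Slco genes (0.18 and -0.08) with the minimum of 50, and for aldehyde dehydrogenases on centring (0.00 and -0.01). Counts of calls per list moved by over 1.5 times at an adjusted p under 0.01 in 14 of 69 lists for rises and 19 of 69 for falls. Of 356 named log2 fold changes, 1 moved by over 1.5 times with a pseudocount of 1 and 18 with one of 10. No called change turned its direction, but a constant added to both group means cannot change which mean is larger. The pseudocounts therefore give no check of direction.

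No paired analysis was possible because the deposited values per library match no label and the group means carry no replicate. For the same reason edgeR and DESeq2 fits, other size factors and leaving out a library were not run, so whether 1 library decides a call is not known. Depth per library is unknown, and members under 50 normalized counts passed only with changes of at least 0.65 on the log2 scale.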

Other observations

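Several pairs of genes from the same family held changes of opposite sign per the authors' deposited table. Slco1a1 had a log2 fold change of -2.89 and Slco1a4 one of 2.21, Slc22a28 one of -4.24 and Slc22a26 one of 3.43, Gstm4 one of -1.96 and Gsta2 one of 1.23. Within the Cyp4a family Cyp4a14 had 2.46 and Cyp4a12a -3.06 per the authors' deposited table. Alas2, the erythroid form of the first enzyme of heme synthesis, had -2.34 per the authors' deposited table. The 3 globin entries of the erythroid list lay above 0 and did not pass.

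Just under the threshold lay Pex26 and Fam193b, with adjusted p of 0.04986 and 0.04999, and just over it Prkrir and Rad23b, with 0.0502 each, per the authors' deposited table. The share of members called ran from 14.9% on chromosome X to 25.5% on chromosome 19. The 4 members on chromosome Y did not pass, and differences between chromosomes were not tested.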
